A study of Mus musculus with 3 samples.

Results

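The genes described here are 31 genes of endoplasmic reticulum (ER) protein folding and stress, out of 32245 gene symbols measured by single-cell RNA sequencing of mouse kidney. They were chosen by name, with earlier results of these data known. Of them, 15 encode folding chaperones and folding enzymes, 4 act in degradation of misfolded proteins, 4 are stress sensors or their transcription factors, 7 belong to the Atf4 arm of the stress response and 1 is a subunit of the channel by which proteins enter the ER. Each of 3 libraries came from whole kidney of 28-week-old male mice, and each group has 1 library. The groups were db/m mice fed a fructose-free control diet, db/db mice fed that same diet, and db/db mice whose diet held 60% fructose, with the diets given for 20 weeks from 8 weeks of age. Mice of the db/db genotype lack the signalling form of the leptin receptor in all cells and become obese and diabetic, while db/m mice carry 1 working copy of the gene and stay lean. The number of mice behind each library is not given in the sources used here. With 1 library per group there is no replicate check and no test, so every interval below covers only counting error or the sampling of cells within a library.

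Secreted and membrane proteins fold in the ER with the help of chaperones such as Hspa5 (BiP) and of disulfide-forming enzymes of the Pdia family. When folding falls behind, 3 sensors respond: Ern1 (IRE1) splices the mRNA of Xbp1, Atf6 is cut to release a transcription factor, and Eif2ak3 (PERK) slows translation and thereby raises translation of Atf4. Xbp1 and Atf6 act mainly on chaperone and degradation genes, and Atf4 on amino acid supply and on stress genes such as Ddit3 (CHOP). Proximal tubule cells reabsorb filtered protein and solutes and make many membrane transporters.

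Values for the 3 libraries are given with db/m first, then db/db control, then db/db fructose. The libraries held 13524, 26513 and 20383 cell barcodes, of which 9940, 16224 and 16049 cells remained after filters and doublet removal, at median depths of 1679, 1628 and 1531 UMIs (counted molecules) per cell. Between 379 and 780 barcodes were shared by pairs of libraries. The cells were clustered without the 31 genes and without 119 related genes, and clusters were named as "-like" classes from marker genes by a rule set after the clusters had been seen. Proximal tubule-like cells numbered 5966, 6342 and 8665. Clusters that the rule left unnamed held 110, 3072 and 579 cells, or 1.11%, 18.9% and 3.61% of the kept cells. Their median mitochondrial share was 25.3%, 38.3% and 20.8%, and they were left out of the comparisons by class. Levels are UMIs summed over a class and given as counts per 1000000 UMIs of that class (CPM), and a gene counts as measured when at least 1 of the libraries compared reaches 10 CPM. A ratio is called lower or higher at 1.5-fold or more. Several properties of the proximal tubule-like cells moved with the groups, and their part in the results below was not tested except where a value is given. The median mitochondrial share was 14.5%, 20.6% and 9.24%. Cells with mostly late-segment markers made up 41.8%, 5.62% and 13.4% of the cells that could be placed in a segment. The clusters differed too, with 3 clusters (numbers 2, 5 and 13) holding 100 or more cells of every library. Cytosolic heat shock genes summed to 3646, 1752 and 1801 CPM, and immediate-early genes to 3401, 2843 and 4936 CPM.

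In proximal tubule-like cells, the folding genes were lower in db/db mice on control diet than in db/m mice, and the Atf4-arm genes were not called in either direction. Of the 15 folding genes, 13 were lower by 1.5-fold or more and 0 were higher. Over all 8732 genes measured in this comparison, 16.6% were lower and 7.39% higher. The median log2 ratio of the folding genes was -0.90 against -0.02 for all measured genes, and the folding genes together made up 2932 CPM in db/m and 1599 CPM in db/db control, a log2 ratio of -0.87 (95% interval -0.90 to -0.85). Of the 7 Atf4-arm genes, 4 were measured and none of these 4 was called, with a median log2 ratio of -0.21 and a summed level of 200 CPM in db/m and 172 CPM in db/db control. The chaperone sum thus differed more between these libraries than the Atf4-arm sum did.

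Hspa5, the main ATP-driven chaperone of the ER (ENSMUSG00000026864; mm10, chr2:34771970-34777547, plus strand), had 634 CPM in the db/m library, 356 in the db/db control library and 261 with fructose. The 95% counting intervals of these 3 levels did not overlap, and the db/m level was the highest. Its log2 ratio of db/db control over db/m was -0.83 (-0.89 to -0.78). Hsp90b1 (GRP94), the ER member of the Hsp90 family, had 494, 265 and 236 CPM in the same order. Hyou1, a large relative of Hsp70 that works with Hspa5, had 91.4, 56.7 and 56.3 CPM. Both were called lower in db/db control than in db/m, at -0.90 and -0.69.

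Calreticulin (Calr) and calnexin (Canx) hold newly made glycoproteins until they have folded. Calr (ENSMUSG00000003814; mm10, chr8:84841850-84846934, minus strand) had 287, 118 and 116 CPM, a log2 ratio of -1.28 (-1.38 to -1.19) between the control-diet libraries. Canx had 273, 187 and 194 CPM, and its ratio of -0.54 stayed within 1.5-fold. The soluble member of the pair therefore differed more than the membrane-bound one, with intervals that did not overlap. Erythroid-like cells, used below as a reference for RNA free in the droplets, had 254 and 121 CPM of Calr in db/m and db/db control. Their Canx level was 227 and 175 CPM, with haemoglobin UMIs left out of the total. These levels rest on 37 and 20 UMIs for Calr and 33 and 29 for Canx. Whether the contrast belongs to proximal tubule-like cells was not tested.

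The protein disulfide isomerases form and rearrange disulfide bonds. Pdia3 had 331, 170 and 182 CPM, and P4hb had 218, 119 and 153 CPM. Pdia6 had 116, 60.4 and 69.5 CPM, and Pdia4 had 65.7, 39.4 and 39.6 CPM. All 4 were highest in db/m and all 4 were called lower in db/db control, at log2 ratios from -0.96 (Pdia3) to -0.74 (Pdia4).

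The J-domain proteins deliver substrates to Hspa5. Dnajb11 had 71.8, 36.9 and 38.8 CPM, and Dnajc3, which also inhibits kinases of the translation factor eIF2, had 139, 91.6 and 116 CPM. Dnajb9 had 32.8, 23.0 and 28.3 CPM and was the other folding gene, beside Canx, that was not called, at -0.51 (-0.75 to -0.28). Sdf2l1, a partner of Dnajb11, was the lowest folding gene at 12.5, 5.28 and 4.90 CPM (148, 58 and 72 UMIs). Manf, a secreted ER stress protein (ENSMUSG00000032575; mm10, chr9:106838312-106891979, minus strand), had 114, 42.9 and 51.9 CPM. Its ratio of -1.42 (-1.57 to -1.26) was the lowest of the 15. Creld2, a secreted protein with disulfide-handling motifs, had 50.2, 26.2 and 30.3 CPM.

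**Figure D1:**
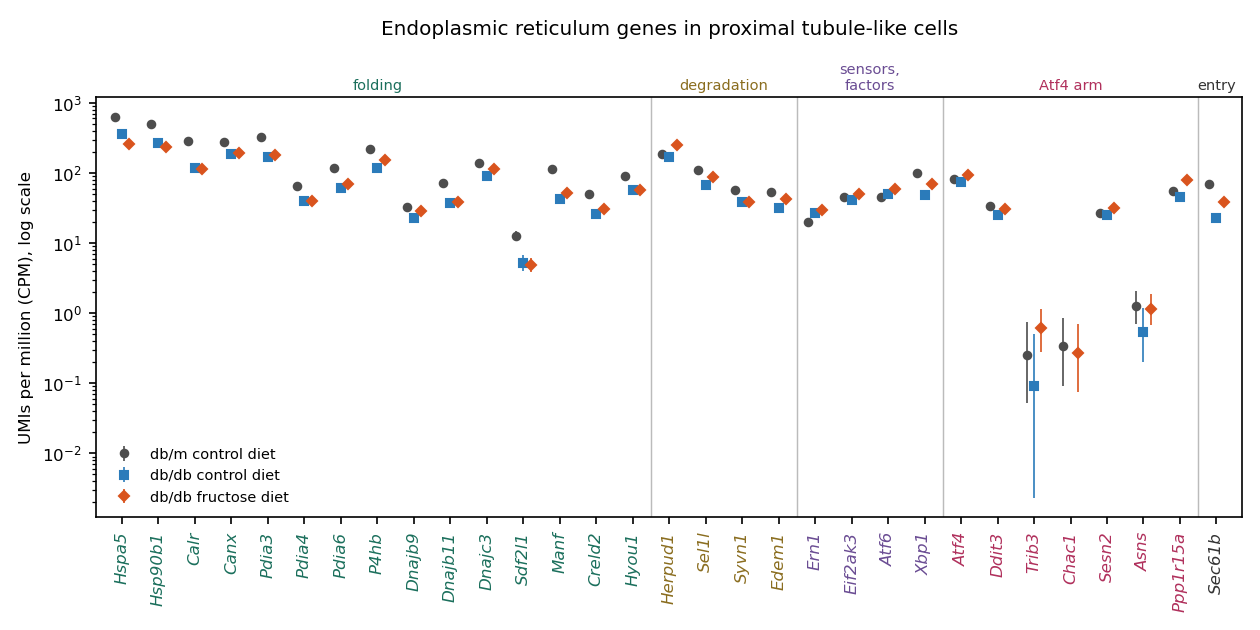
Level of each of the 31 genes in proximal tubule-like cells (CPM, log axis), with 1 point per library and bars for the exact Poisson 95% interval; Chac1 had 0 UMIs in db/db control and has no point there. Most folding genes have their db/m point above both db/db points, while Atf4, Sesn2 and Ddit3 lie close together in the 3 libraries.

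Promoters of the folding genes are shown next, since letters that Atf6 and Xbp1 are known to bind can be looked for there. RefSeq promoter windows (GRCm38.p6, 250 bases before to 50 after the transcription start) were available for 28 of the 31 genes; Manf, Hyou1 and Atf6 had none. The windows were searched on both strands for the ER stress response element ERSE (CCAAT and CCACG with any 9 bases between them), for ERSE-II (ATTGG and CCACG with any 1 base between them), for the unfolded protein response element UPRE (TGACGTGG) and for CARE, the element of Atf4 with C/EBP factors (TGATGNAAN); no 2 matches overlapped. ERSE was found in 7 of the 13 folding genes that had a window, and in 0.137% of all 27025 genes with a window. The genes were chosen by name as ER folding and stress genes. For this and the other elements, a share above that of all genes is therefore no result about the difference between libraries. The stretches below carry the match in capitals with 20 bases on either side (fewer where the stretch would run past the start site), read 5′ to 3′ on the gene's strand; a match on the other strand appears as its reverse complement.
Hspa5, chr2:34772005-34772063, plus strand: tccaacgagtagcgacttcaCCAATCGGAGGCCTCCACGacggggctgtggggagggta
Hsp90b1, chr10:86705618-86705676, minus strand: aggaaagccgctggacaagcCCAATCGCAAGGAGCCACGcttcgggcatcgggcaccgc
Hsp90b1, chr10:86705513-86705571, minus strand: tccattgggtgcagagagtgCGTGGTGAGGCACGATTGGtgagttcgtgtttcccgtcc
Calr, chr8:84847055-84847113, minus strand: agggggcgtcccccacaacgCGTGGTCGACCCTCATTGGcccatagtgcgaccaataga
Canx, chr11:50325780-50325838, minus strand: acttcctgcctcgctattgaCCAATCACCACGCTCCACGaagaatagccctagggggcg
Pdia6, chr12:17266471-17266529, plus strand: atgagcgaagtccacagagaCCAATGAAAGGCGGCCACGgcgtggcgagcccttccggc
Dnajc3, chr14:118937807-118937865, plus strand: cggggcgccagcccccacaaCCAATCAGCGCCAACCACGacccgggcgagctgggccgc
Creld2, chr15:88819500-88819558, plus strand: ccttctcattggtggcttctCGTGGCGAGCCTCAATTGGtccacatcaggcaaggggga

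The 7 genes with ERSE had log2 ratios of db/db control over db/m from -1.28 (Calr) to -0.54 (Canx) in proximal tubule-like cells. The folding genes with no ERSE match, or with no window, ranged from -1.42 (Manf) to -0.51 (Dnajb9), so the ranges overlapped. Dnajb11 carried ERSE-II, which 0.0444% of genes with a window carry, and UPRE was in none of the 28 windows against 0.714% of genes. Among the degradation genes, Syvn1 carried ERSE and Herpud1 carried both ERSE-II and CARE. CARE was found in 3 of the 7 Atf4-arm genes (Chac1, Asns and Trib3), against 4.50% of genes. The degradation and Atf4-arm matches that lie before the start site are shown here, because Herpud1 alone among the 28 genes with a window held elements of both kinds.
Syvn1 (ERSE), chr19:6046512-6046570, plus strand: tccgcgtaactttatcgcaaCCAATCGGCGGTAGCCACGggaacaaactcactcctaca
Herpud1 (ERSE-II), chr8:94386357-94386407, plus strand: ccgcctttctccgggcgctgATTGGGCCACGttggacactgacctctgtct
Herpud1 (CARE), chr8:94386296-94386344, plus strand: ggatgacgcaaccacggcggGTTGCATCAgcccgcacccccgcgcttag
Asns (CARE), chr6:7693210-7693252, minus strand: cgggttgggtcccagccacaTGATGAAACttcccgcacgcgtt
Chac1 (CARE), chr2:119351028-119351076, plus strand: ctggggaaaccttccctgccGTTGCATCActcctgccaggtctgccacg
A match of letters is a description of the window and no measurement of binding.

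**Figure D2:**
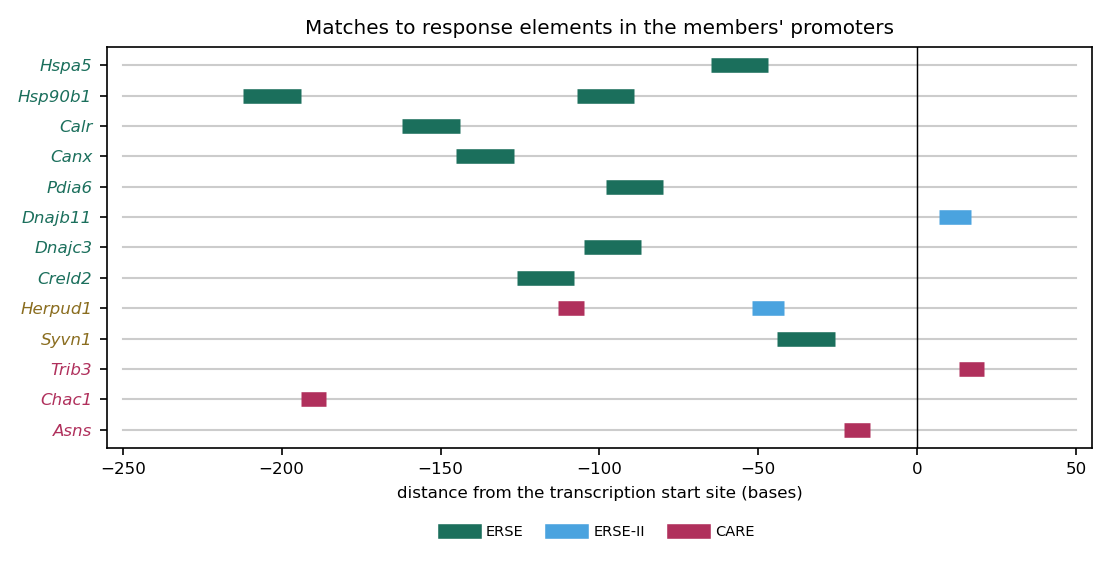
Positions of the matches in the 13 genes that had any, as distance from the transcription start site in bases (grey lines, the window searched; coloured bars, the matches). The ERSE matches of the folding genes lie before the start site, and those of Dnajb11 (ERSE-II) and Trib3 (CARE) after it.

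The degradation genes split. Sel1l and Syvn1 form the membrane complex that passes misfolded proteins out of the ER. Sel1l had 110, 68.2 and 87.7 CPM and was called lower in db/db control than in db/m (-0.69), while Syvn1, at 56.8, 38.4 and 38.1 CPM, stayed within 1.5-fold (-0.56). Edem1, which directs misfolded glycoproteins to that complex, had 53.5, 31.4 and 43.2 CPM and was called lower (-0.77). Herpud1 (ENSMUSG00000031770), a stress-induced partner of the same complex, had 186, 172 and 249 CPM, and its ratio of db/db control over db/m was -0.11 (-0.20 to -0.02). Herpud1 was therefore close to level between the control-diet libraries, apart from the 15 folding genes, which ranged from -1.42 to -0.51.

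The sensors were not lower with the chaperones. Ern1 had 19.8, 26.9 and 29.6 CPM, and its log2 ratio of db/db control over db/m was 0.44 (0.19 to 0.70), within 1.5-fold. Eif2ak3 had 45.9, 41.0 and 50.2 CPM and Atf6 had 45.4, 50.1 and 60.1 CPM, with intervals of the ratio that included 0. Xbp1, the transcription factor whose mRNA Ern1 splices (ENSMUSG00000020484; mm10, chr11:5520659-5525893, plus strand), was the only one of these 4 genes that was called, at 99.7, 48.3 and 69.5 CPM and a log2 ratio of -1.04 (-1.19 to -0.90). The counts do not separate spliced from unspliced Xbp1 mRNA.

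In the Atf4 arm, Atf4 itself (ENSMUSG00000042406; mm10, chr15:80255184-80257541, plus strand) had 82.1, 74.6 and 92.8 CPM, and its log2 ratio of db/db control over db/m was -0.14 (-0.27 to 0.00). Atf4 is controlled largely by translation, which UMI counts do not measure. Ddit3, the pro-apoptotic factor CHOP, had 33.9, 25.5 and 30.2 CPM (-0.41, -0.64 to -0.19). The files hold 2 gene identifiers for Ddit3, and every UMI was on ENSMUSG00000025408, with 0 on the other. Sesn2, a stress-induced inhibitor of mTORC1 signalling, had 26.8, 25.6 and 31.9 CPM. Ppp1r15a (GADD34), which reverses the slowing of translation (ENSMUSG00000040435; mm10, chr7:45522916-45526268, minus strand), had 55.1, 45.3 and 79.4 CPM. These 4 genes were all highest in either db/m or db/db fructose and lowest in db/db control, with differences smaller than 1.5-fold between the control-diet libraries. The other 3 were below the measured level: Asns, asparagine synthetase, had 15, 6 and 17 UMIs, Chac1, a glutathione-degrading enzyme, had 4, 0 and 4 UMIs, and Trib3, an inhibitor of Akt signalling, had 3, 1 and 9 UMIs. No direction was read from these 3 genes.

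Sec61b, a small subunit of the Sec61 channel (ENSMUSG00000053317; mm10, chr4:47474658-47483242, plus strand), had 69.5, 23.0 and 39.0 CPM. Its ratio of -1.59 (-1.80 to -1.39) was the lowest of all 28 measured genes.

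**Figure D3:**
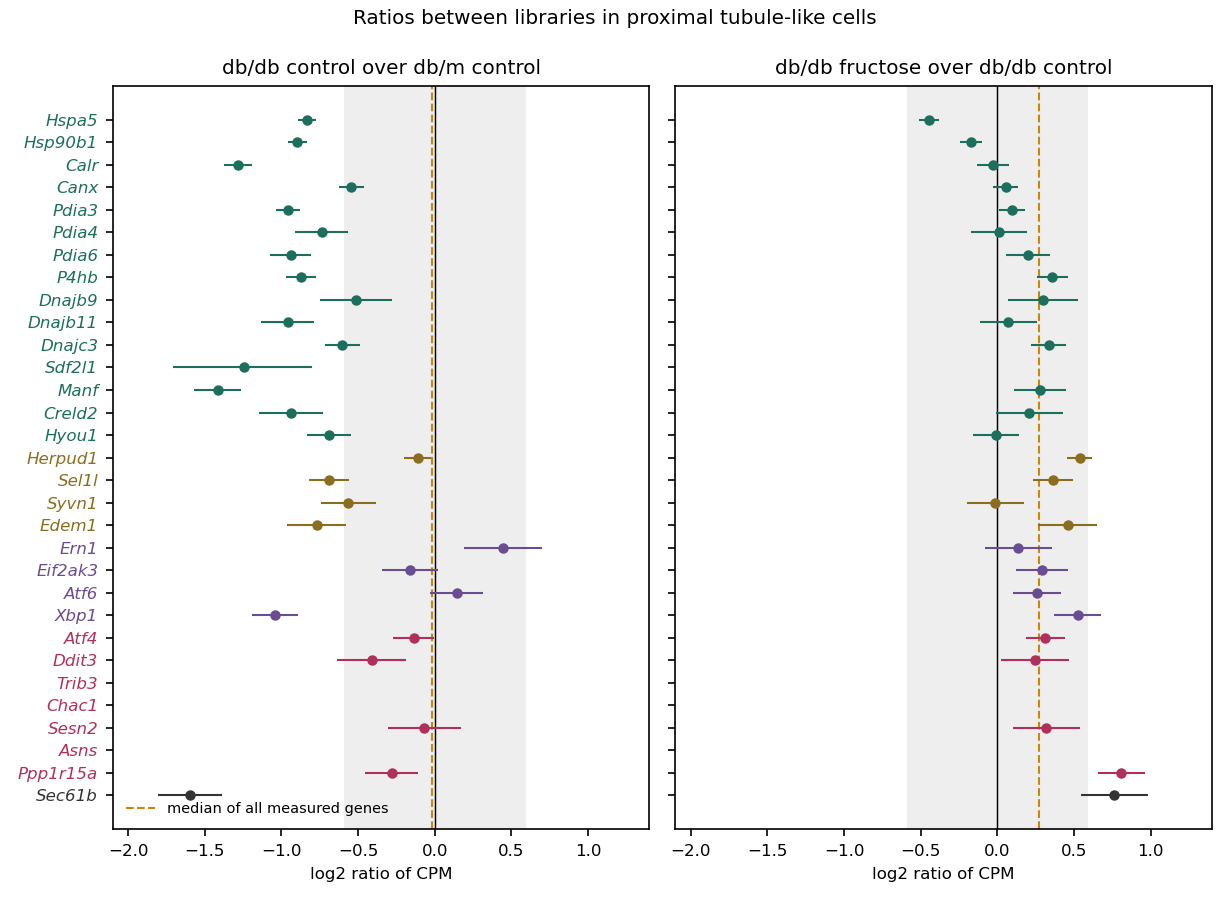
Log2 ratios in proximal tubule-like cells with exact 95% counting intervals, for db/db control over db/m control (left) and db/db fructose over db/db control (right); the grey band is within 1.5-fold, the dashed line is the median of all measured genes, and genes without a point were not measured. On the left all 15 folding genes lie below the dashed line at -0.02, and on the right Hspa5 lies lowest and Ppp1r15a and Sec61b highest.

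The same UMIs were also described per cell, which restates the sums above and is no second observation. In proximal tubule-like cells thinned to 1000 UMIs each, the mean number of folding-gene UMIs per cell was 2.80 in the db/m library, 1.61 in the db/db control library and 1.46 with fructose, and that of the Atf4 arm was 0.199, 0.170 and 0.236. The share of thinned cells with at least 1 folding UMI was 91.3% (exact binomial 95% interval 90.5% to 92.1%), 78.6% (77.6% to 79.6%) and 74.8% (73.8% to 75.8%). Without thinning the share was 97.0%, 90.8% and 86.4%. The binomial intervals cover the sampling of cells within a library, and cells of 1 library are not replicates of its group. Thinning left out 1100, 261 and 1207 cells with fewer than 1000 UMIs.

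Free RNA in the droplets was substantial, and its values move with these results. Erythroid-like cells, used as cells that should carry few of these mRNAs, had a thinned share of 71.2%, 62.7% and 65.4% with a folding UMI, at median depths of 1759, 1912 and 1308 UMIs. Their summed folding level, with haemoglobin UMIs left out of the total, was 2414, 1603 and 1420 CPM, which is 82.3%, 100% and 90.0% of the level in proximal tubule-like cells of the same library. Between the control-diet libraries this background level itself differed by a log2 ratio of -0.59 (-0.83 to -0.36). A level in a class can therefore not be told apart from the library's free RNA by these sums alone. The Atf4-arm level in erythroid-like cells was 110, 108 and 198 CPM, or 55.1%, 63.2% and 83.7% of the proximal level, from 16, 18 and 22 UMIs. After an estimated free RNA share of 48.3%, 52.4% and 63.7% was subtracted, 14 folding genes were measured and all 14 were lower in db/db control than in db/m, at a median of -1.14, where 22.3% of all measured genes were lower. That share was estimated from proximal markers in 82, 74 and 95 lymphocyte-like cells. Plasma cell markers in these cells summed to 10593, 95.8 and 66.9 CPM, so the cells used differed between the libraries. The part of this difference in the estimated shares was not tested. The profile subtracted was the sum of all kept cells, of which 60.0%, 39.1% and 54.0% were proximal tubule-like. RNA of the proximal tubule-like cells themselves was therefore part of what was subtracted, and this step does not separate it from free RNA.

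Within the proximal tubule-like class the folding sum was lower in db/db control than in db/m in each of the 3 clusters with 100 or more cells of every library. It was 2728 against 1642 CPM in cluster 2, 4231 against 2144 CPM in cluster 5 and 2860 against 1615 CPM in cluster 13. Of 15 folding genes, 8, 11 and 14 were lower in these clusters, where 29.7% of all measured genes were lower in cluster 5 and at most 16.6% in the other two. The Atf4-arm sum differed less, with 195 against 163 CPM (log2 ratio -0.26), 337 against 232 CPM (-0.54) and 205 against 163 CPM (-0.33), and 2, 2 and 1 of its 4 measured genes were called lower. Atf4 itself had 66.7 against 74.8 CPM in cluster 2, 135 against 102 CPM in cluster 5 and 84.6 against 70.3 CPM in cluster 13. These clusters were picked after the data had been seen. Pooled, they gave 14 of 15 folding genes and 3 of 4 measured Atf4-arm genes lower (33.6% of all measured genes). The mix of clusters differs between the libraries. Cluster 5 holds 186 of the db/m cells beside 129 of the db/db control cells, and cluster 13 holds 308 beside 1534. The part of this mix in the pooled counts was not tested. Among early-segment cells 13 of 15 folding genes were lower (18.5% of all measured genes), and among late-segment cells 10 of the 14 measured (18.3%). Among cells with 5 to 20% mitochondrial UMIs the count was 13 of 15 (16.2%).

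In proximal tubule-like cells as a whole, the folding genes did not follow the other genes upward between the db/db libraries. This comparison shares the db/db control library with the one above. The median log2 ratio of fructose over control over all 8992 measured genes was 0.27, with 12.0% of genes higher and 1.46% lower, so ratios are best read against 0.27. Scaling by median-of-ratios size factors moved all ratios down by about that amount. Of the 14 measured folding genes 0 were called, their median was 0.08 (-0.19 relative to all genes), and 10 of 14 lay below the median of all genes. The folding sum was 1599 CPM in db/db control and 1578 CPM in db/db fructose. In cluster 5 alone it was 2144 and 2450 CPM, and 6 of 15 folding genes were higher and 0 lower. There 22.7% of all measured genes were higher and 12.7% lower. Cluster 2 had 1642 and 1669 CPM and 0 of 14 called (16.6% of all genes higher, 6.46% lower). Cluster 13 had 1615 and 1446 CPM, with 1 of 14 lower and 0 higher (11.9% of all genes higher, 1.94% lower). Over the whole class, Hspa5 was the lowest of the 14, at -0.44 (-0.51 to -0.38), or -0.72 relative to all genes. It stayed below 0 in all 13 alternative settings run for it. Erythroid-like cells, with haemoglobin UMIs left out, had 356 CPM of Hspa5 in db/db control and 207 CPM in db/db fructose, from 59 and 23 UMIs. Whether the Hspa5 difference belongs to proximal tubule-like cells was not tested. Hsp90b1 followed Hspa5 in proximal tubule-like cells at -0.17 (-0.24 to -0.10), with a sign that changed in 1 of its 13 settings. P4hb (0.36), Dnajc3 (0.34), Dnajb9 (0.30) and Manf (0.28) lay at or above the median of all genes.

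The other roles lay on both sides of that median. Herpud1 had a ratio of 0.54 (0.46 to 0.62) and Edem1 one of 0.46 (0.27 to 0.65), both within 1.5-fold, while Syvn1 was at -0.01. Xbp1 had a ratio of 0.53 (0.37 to 0.68), Eif2ak3 0.29, Atf6 0.26 and Ern1 0.14, none of them called. In the Atf4 arm, 1 of 4 measured genes was called: Ppp1r15a was higher at 0.81 (0.66 to 0.96), or 0.54 relative to all genes, and was at -0.42 when free RNA was subtracted. Atf4 (0.31), Sesn2 (0.32) and Ddit3 (0.24) lay close to the median of all genes. The Atf4-arm sum was 172 CPM in db/db control and 236 CPM in db/db fructose (log2 ratio 0.46, 0.38 to 0.54), and 9 of 13 immediate-early genes were higher in the same cells. Sec61b was called higher (0.76, 0.55 to 0.98), at -0.13 with free RNA subtracted. The Atf4 arm made up 6.38% of the UMIs of the folding and Atf4-arm genes together in db/m, 9.70% in db/db control and 13.0% in db/db fructose, and the intervals of these shares did not overlap. The share was in the same order in erythroid-like cells, at 4.36%, 6.34% and 12.2%. Thick ascending limb-like cells had 6.33%, 7.94% and 10.8%, while pericyte, mesangial and smooth muscle-like cells had 10.1%, 6.85% and 8.33%. The rise was therefore not particular to proximal tubule-like cells.

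Other genes of the same compartment were described from fixed lists, whose counts are to be read against the 16.6% of all measured genes that were lower and the 7.39% that were higher. Of 24 measured genes of protein entry (translocon, signal peptidase, signal recognition), 15 were lower in db/db control than in db/m in proximal tubule-like cells and 0 higher, led by the signal peptidase subunits Sec11a (94.3 and 30.3 CPM, log2 ratio -1.64) and Spcs1 (88.7 and 35.1 CPM, -1.34). Of 21 other folding and glycosylation genes 6 were lower, Selenof (127 and 63.6 CPM) and Cnpy2 (69.4 and 40.8 CPM) furthest, and Ganab, a glucosidase subunit, was at 0.01. Of 16 other degradation genes 3 were lower, a share near the background, with Selenok at -1.17. Of 11 other sensors and regulators 0 were lower and 1 was higher. Of 27 other Atf4-arm targets 4 were lower and 1 higher, also near the background: Atf3, also an immediate-early gene, had 95.9 and 28.8 CPM (-1.74), Cbs had 108 and 56.2 CPM (-0.94), and the amino acid transporter gene Slc38a2 had 48.7 and 83.1 CPM (0.77). Cytosolic heat shock genes, which are not ER genes, were lower as well, 10 of 13. In db/db fructose against db/db control, 4 of 24 entry genes were higher against 12.0% of all measured genes, Sec11a at 1.07 and Spcs1 at 0.73, and Atf3 was higher at 1.24.

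In the 7 other named classes with 100 or more cells per library, erythroid-like cells left out, the summed folding level was lower in db/db control than in db/m as well, and no folding gene was called higher in any of them. Connecting tubule and principal-like cells had 9 of 15 folding genes lower (background 14.4%), with sums of 2677, 1769 and 2170 CPM. Distal convoluted tubule-like cells had 8 of 15 lower (background 10.1%; 2410, 1650 and 1536 CPM). Thick ascending limb-like cells had 4 of 15 lower (background 4.92%; 2867, 2111 and 1749 CPM). Their cytosolic heat shock sum differed less, at 2798, 2331 and 2112 CPM, with 2 of 13 lower and 1 higher. Mononuclear phagocyte-like cells had 6 of 15 lower, near a background of 24.8%. The class of pericyte, mesangial and smooth muscle-like cells had 5 of 15 lower, near a background of 27.6%. Endothelium-like cells had 3 of 15 lower and 0 higher (background 10.6% and 7.61%; 3702, 2742 and 3019 CPM) and intercalated-like cells 2 of 15 (background 13.1%; 2718, 2039 and 1949 CPM).

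**Figure D4:**
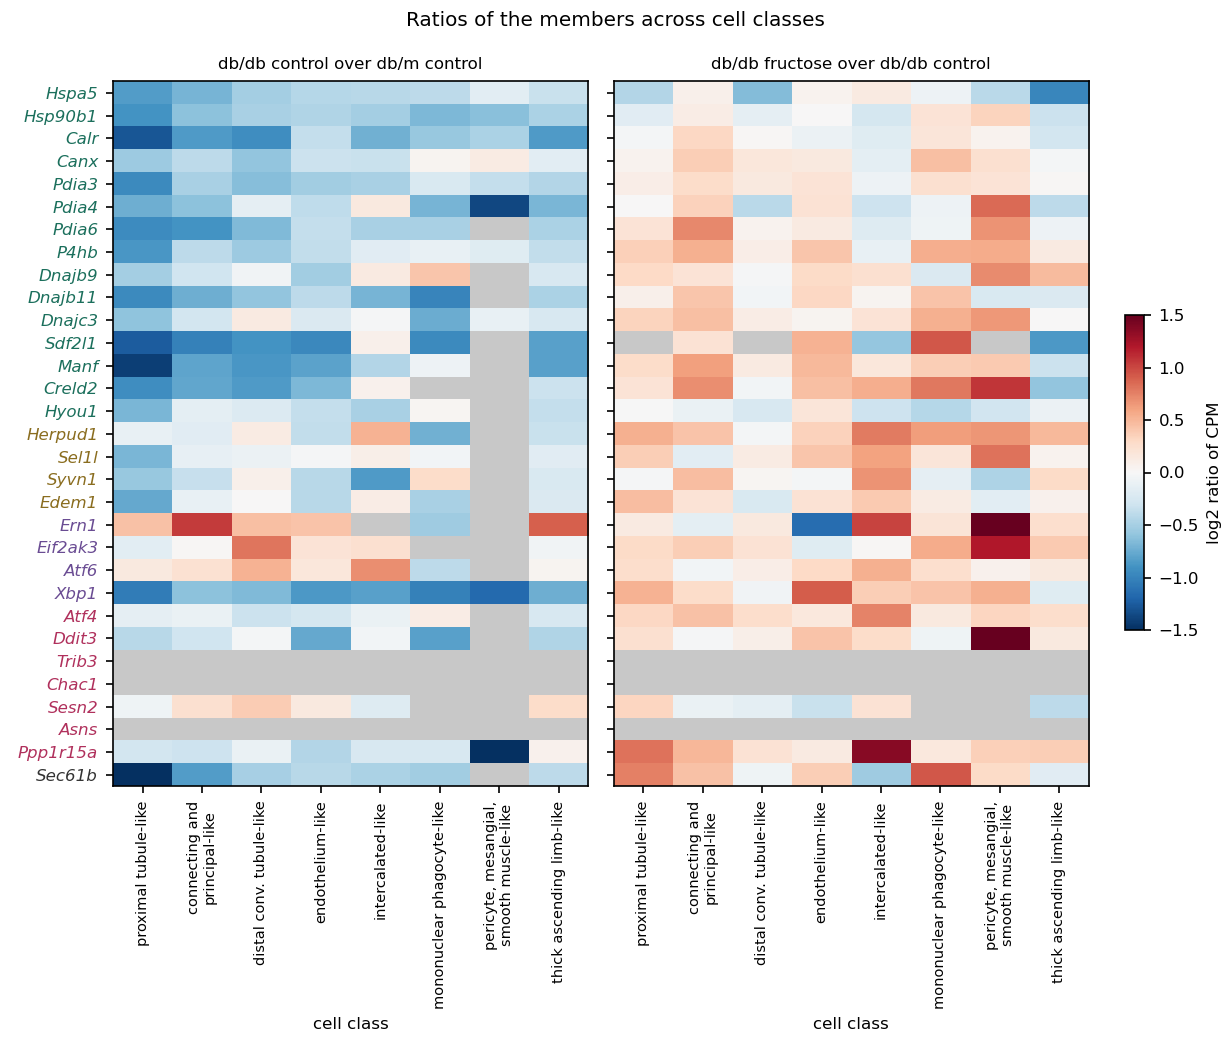
Log2 ratios of the 31 genes (rows, by role) in 8 cell classes (columns) for the 2 comparisons; the colour scale ends at 1.5 in either direction, and grey marks genes under 10 CPM or under 20 UMIs in both libraries. On the left Xbp1 and Calr are blue in every class with a value, and Ern1 is red in 5 of 6.

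Xbp1 was called lower in db/db control than in db/m in 8 of 8 classes, at log2 ratios from -1.17 (pericyte, mesangial and smooth muscle-like) to -0.61 (connecting tubule and principal-like). The db/m level was the highest of the 3 in 7 of the classes; endothelium-like cells had 122, 67.1 and 126 CPM. Hspa5, Hsp90b1, Calr, Pdia3 and P4hb were below 0 in 8 of 8 classes, and Calr was called lower in 5 of them. The share of all measured genes called lower ran from 4.92% (thick ascending limb-like) to 27.6% (pericyte, mesangial and smooth muscle-like). How many of all genes were lower in every class was not counted. The classes come from the same pair of libraries and share their free RNA, so they are not separate observations. Ern1, the enzyme that splices Xbp1 mRNA, was above 0 in 5 of the 6 classes where it had at least 20 UMIs in a library, and was called higher in connecting tubule and principal-like cells (11.0 and 22.7 CPM, log2 ratio 1.05, 0.39 to 1.74) and in thick ascending limb-like cells (9.35 and 17.4 CPM, 0.90, 0.19 to 1.64). The background of genes called higher was 6.78% and 7.57% in these classes. Eif2ak3 was called higher in distal convoluted tubule-like cells (16.8 and 29.3 CPM, 0.80, 0.16 to 1.50), where 15.6% of all measured genes were.

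Atf4-arm genes were seldom called between the control-diet libraries. Ddit3 was called lower in endothelium-like cells (31.1 and 18.2 CPM) and in mononuclear phagocyte-like cells (64.2 and 36.6 CPM, with an interval of the ratio that included 0). Ppp1r15a was called lower in the pericyte, mesangial and smooth muscle-like class (215 and 75.6 CPM, -1.51, -2.37 to -0.69), from 42 and 19 UMIs. Atf4 stayed within 1.5-fold in the 7 classes where it had at least 20 UMIs in a library, at log2 ratios from -0.33 to 0.11.

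**Figure D5:**
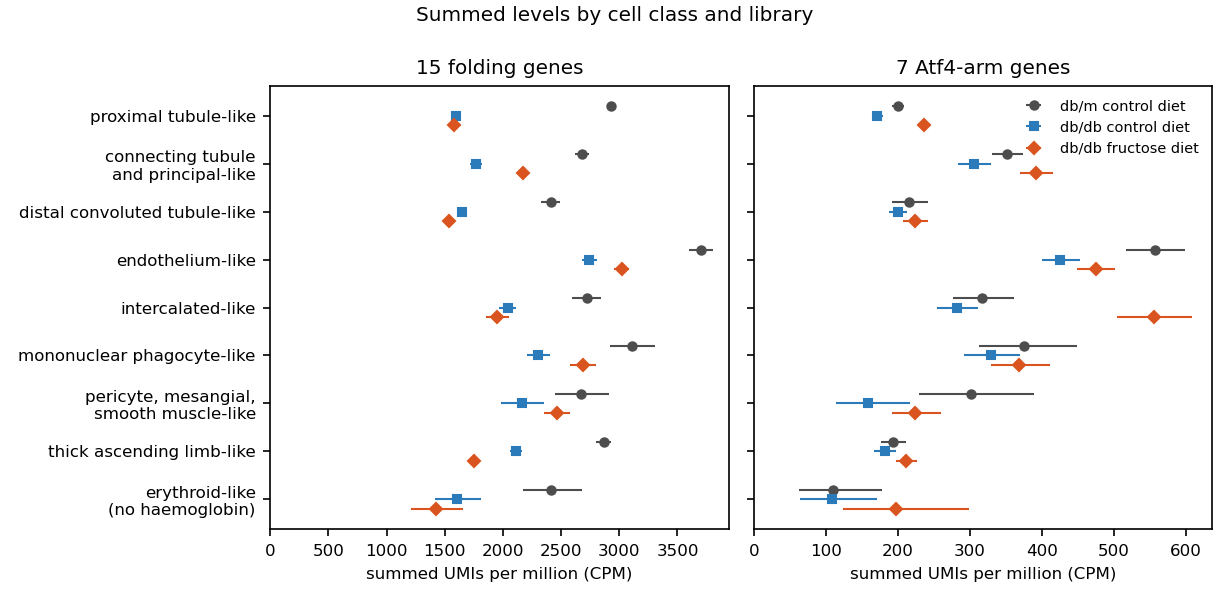
Summed CPM of the 15 folding genes (left) and the 7 Atf4-arm genes (right) by class and library, with Poisson 95% intervals; erythroid-like cells, with haemoglobin left out of the total, stand for free RNA. On the left the db/m point is rightmost in every class, and on the right the db/db fructose point of intercalated-like cells is at 556 CPM.

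With fructose, folding genes were called in some of these classes, and no difference between classes was tested. Hspa5 was called lower than in db/db control in thick ascending limb-like cells (460 and 233 CPM, -0.98, -1.10 to -0.86) and in distal convoluted tubule-like cells (349 and 223 CPM, -0.65, -0.78 to -0.51), where 1.57% and 2.13% of all measured genes were lower and 10.6% and 5.97% higher. Sdf2l1 and Creld2 were called lower in thick ascending limb-like cells too. Connecting tubule and principal-like cells had 3 of 15 folding genes higher, Pdia6 (63.6 and 105 CPM), Manf (60.2 and 91.9 CPM) and Creld2 (20.6 and 33.4 CPM), at a background of 18.9% (2.58% of genes were lower). Mononuclear phagocyte-like cells had 2 of 15 higher at a background of 22.0% (8.42% lower). The class of pericyte, mesangial and smooth muscle-like cells had 5 of 15 higher at a background of 27.6%, so the counts of higher folding genes in these 3 classes lay near or below the background. No folding gene was called in endothelium-like cells (10.2% of all measured genes were higher there and 2.25% lower), where Xbp1 was higher (0.91, 0.63 to 1.18).

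Intercalated-like cells held the highest Atf4-arm level of the 8 classes in db/db fructose, 556 CPM against 282 CPM in db/db control. Ppp1r15a had 126 CPM in db/db control and 325 CPM in db/db fructose (log2 ratio 1.37, 1.09 to 1.65), and Atf4 had 84.4 and 141 CPM (0.74, 0.36 to 1.12). Both were called higher, at a background of 30.7%, and Herpud1 was higher as well (108 and 187 CPM, 0.78). All 13 immediate-early genes were higher in these cells, from a sum of 4626 to 9914 CPM. The folding sum was level, at 2039 and 1949 CPM, and 0 of 15 folding genes were called, against 5.81% of all genes lower. In all 8 classes Atf4 and Ppp1r15a were above 0 in this comparison, from 0.15 to 0.74 and from 0.14 to 1.37, while the median of all genes was above 0 in each class too.

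Within a library, the members peaked in different classes among the 11 named classes, other than erythroid-like cells, with 50 or more cells in each library. Xbp1 was highest in thin limb-like cells in all 3 libraries (301, 217 and 216 CPM), as were Ppp1r15a (424, 403 and 335 CPM) and Ddit3 (89.7, 52.0 and 52.9 CPM, from 45, 12 and 24 UMIs). Their intervals overlapped those of the next class in some libraries, so the order of the highest classes is uncertain. Immediate-early genes were high in the same cells, at 23740, 22687 and 24236 CPM. Herpud1 was highest in macula densa-like cells (521, 325 and 331 CPM) in all 3 libraries. Hsp90b1 (772, 564 and 564 CPM), Pdia3 (554, 386 and 445 CPM) and Atf4 (177, 148 and 166 CPM) were highest in endothelium-like cells in all 3. Some of their intervals also overlapped those of the next class. In db/db control, Hsp90b1 had 554 CPM in macula densa-like cells and Atf4 had 139 CPM in thin limb-like cells. Sdf2l1 was highest in mononuclear phagocyte-like cells (113, 58.3 and 112 CPM), whose db/m and db/db fructose levels lay within each other's counting intervals. Podocyte-like cells, with 107, 8 and 12 cells, had folding sums of 5207, 4107 and 3710 CPM, above every class in the plot of summed levels. They are outside the 11 classes ranked here, and had 869, 770 and 644 CPM of Hsp90b1 (287, 18 and 21 UMIs). Their Pdia3 level was 618, 342 and 583 CPM (204, 8 and 19 UMIs). Proximal tubule-like cells had folding sums of 2932, 1599 and 1578 CPM. Their db/db control sum was the lowest of the 8 classes compared between libraries.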

How the data were processed

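Single-cell RNA libraries of whole kidney were measured, 1 per group. The deposited matrices hold raw counts (UMIs per gene and barcode), which the authors made with Cell Ranger 6.0.0 on mm10, per the submitters' processing notes. The 31 genes, the related lists and the comparisons were chosen with earlier results of these data known, and all 31 are accounted for. Barcodes with fewer than 200 genes, or with over 50% of UMIs mitochondrial, were dropped. Doublets were removed with Scrublet at 0.8% per 1000 barcodes. Cells were clustered with scanpy 1.11.5 (2000 variable genes, 30 components, 15 neighbours, Leiden resolution 1). In other classes, named genes were those called with at least 20 UMIs in the higher library, at most 3 per direction, plus genes singled out after their values were seen. Named genes of the related lists were the 2 highest and 2 lowest at 50 CPM or more, with some left out. Ratios have exact conditional binomial 95% intervals, levels exact Poisson intervals; both cover counting error only. Kept UMIs per library were 22789792, 32315324 and 32143788. The ratio script was tested on simulated data. Alternatives covered filters, doublets, scaling, clustering, segments, free RNA and thresholds.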

Additional observations from a re-analysis of the deposited data

Results flagged for a closer look

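In 4 cases a gene was higher in db/db fructose than in db/db control in 1 class and lower in another, both past 1.5-fold and with counting intervals that exclude 0. With 1 library per group the difference between classes was not tested. Sdf2l1 had 58.3 and 112 CPM (db/db control, db/db fructose) in mononuclear phagocyte-like cells and 16.2 and 8.89 CPM in thick ascending limb-like cells, log2 ratios that differ by 1.80. Creld2 had 20.6 and 33.4 CPM in connecting tubule and principal-like cells and 30.5 and 20.3 CPM in thick ascending limb-like cells, a difference of 1.29. Ern1 had 13.5 and 27.2 CPM in intercalated-like cells and 17.8 and 8.04 CPM in endothelium-like cells, a difference of 2.16, from 19 to 43 UMIs per value. Ern1 in pericyte, mesangial and smooth muscle-like cells had 7.96 and 33.9 CPM, a difference of 3.24 from endothelium-like cells, which rests on 2 UMIs in db/db control.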

How the results depend on the processing

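No paired analysis was possible because each group has 1 library. The count of folding genes lower in db/db control (13 of 15) lay between 10 and 14 in the alternatives other than a 2-fold threshold, which left 3. The share of all measured genes lower ran from 13.7% to 33.6% in the alternatives where it was counted. It was not counted for the alternatives with other thresholds. The count of Atf4-arm genes lower in that comparison (0) was 1 among late-segment cells and 1 (Asns) with genes measured at 1 CPM. It was 3 of 4 in the pooled clusters shared by all libraries, an alternative chosen after seeing the data. There 33.6% of all measured genes were lower. Taken singly, clusters 2, 5 and 13 had 2, 2 and 1 of 4 Atf4-arm genes lower. Of all measured genes, 29.7% were lower in cluster 5 and at most 16.6% in the others. The Atf4-arm sum differed by less than 1.5-fold within each of these clusters, most in cluster 5 (log2 ratio -0.54). The count of folding genes higher with fructose (0) was 3 of 15 among late-segment cells, where 26.5% of all measured genes were higher. That of Atf4-arm genes higher with fructose (1) was 0 with size factors, with free RNA subtracted and at a 2-fold threshold. It was 2 of 4 among late-segment cells, against the same 26.5% of all measured genes, and 2 at 1 CPM. With free RNA subtracted, the ratio changed sign in 9 of 27 genes in fructose over control and in 1 of 28 in db/db control over db/m; of genes called before, these were Ppp1r15a, at -0.42, and Sec61b, at -0.13, both in fructose over control. The folding median in fructose over control was -0.18 with size factors, -0.10 without mitochondrial UMIs and -0.34 with free RNA subtracted. In that last setting 4 of 14 folding genes were lower, against 9.58% of all measured genes. The cause of these moves was not tested. Depth limits Trib3, Chac1 and Asns most, which had at most 17 UMIs in proximal tubule-like cells of any library.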
